A study of Mus musculus with 2 samples.

Results

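C1qa, C1qb, C1qc, Lyz2 and Fcer1g are genes that macrophages transcribe strongly, and they were followed here in cells sorted as nephron progenitors of the mouse kidney. The genes were chosen by symbol, with earlier results of these data known, and all 5 are among the 10627 rows of the deposited gene table. The study profiled messenger RNA of sorted cap mesenchyme cells at embryonic day 15.5 in 2 libraries, one per genotype, and asked how loss of p53 acts on these cells. The knockout library (KO) came from Six2CreGFP+;p53f/f embryos, in which Cre recombinase driven by Six2 deletes the floxed gene. The wild-type library (WT) came from Six2CreGFP+;p53+/+ embryos, so that both genotypes carry the Cre and GFP transgene. The mice were of a mixed CD1 and C57BL background, and the number of embryos behind each library is not given in the sources used here. Because Six2 drives Cre, the deletion is aimed at nephron progenitors and their descendants, not at blood-derived cells. With 1 library per genotype no difference below has a replicate check, and no p-value was computed from the levels. All levels are read densities in RPKM, which scale the reads of a gene to its length and to the size of the library.

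Macrophages of the embryonic kidney come from the yolk sac and fetal liver and lie between the forming nephrons, where they take up dying cells. C1q, the recognition molecule of the classical complement pathway, is built from A, B and C chains encoded by C1qa, C1qb and C1qc. It binds immune complexes and dying cells and, with the proteases C1r and C1s, starts the complement cascade. Lyz2 encodes the lysozyme of macrophages and neutrophils, an enzyme that cuts bacterial cell walls. Fcer1g encodes the common gamma chain, an adaptor with an activation motif (ITAM) that carries signals of Fc receptors to the kinase Syk. PU.1, the product of Spi1, is the transcription factor that sets the macrophage programme and binds purine-rich sites.

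The genes lie at separate places except for C1q. C1qb, C1qc and C1qa stand in that order in a cluster of 18.7 kb on chromosome 4 of GRCm38 (136880129 to 136898803), all on the minus strand. C1qb (ENSMUSG00000036905) spans 136880129 to 136886187, C1qc (ENSMUSG00000036896) 136889804 to 136893065 and C1qa (ENSMUSG00000036887) 136895917 to 136898803. Lyz2 (ENSMUSG00000069516) spans 117277334 to 117282274 on the minus strand of chromosome 10. Fcer1g (ENSMUSG00000058715) spans 171229572 to 171234365 on the minus strand of chromosome 1. No other GENCODE vM21 gene overlaps any of them.

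Promoter sequence was found for 4 of the 5 genes in RefSeq (GRCm38.p6) and is shown because the genes were low together in KO. The letters GAGGAA, the core of many PU.1 sites, were searched on both strands in the 250 bases before each RefSeq start, so that TTCCTC counts too. The motif stands in the C1qb promoter, 30 bases before the RefSeq start, and in the C1qc promoter, 193 bases before the RefSeq start, and in neither of the other two. It is a common string, held by 23.3% of 32851 promoter windows of the same length. The sequences run 5′ to 3′ with the motif in capitals. Each stops at the start farthest upstream among RefSeq, GENCODE vM21 and the deposited table, so that bases inside the gene in any of them are left out. For C1qc the RefSeq start lies inside the GENCODE gene, and the printed bases end before it.
C1qb, chr4:136886201-136886450, minus strand: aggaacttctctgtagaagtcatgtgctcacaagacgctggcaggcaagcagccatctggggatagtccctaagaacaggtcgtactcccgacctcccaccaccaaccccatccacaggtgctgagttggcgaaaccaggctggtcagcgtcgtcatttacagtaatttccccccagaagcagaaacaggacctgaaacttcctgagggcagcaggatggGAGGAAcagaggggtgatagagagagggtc
C1qc, chr4:136893066-136893164, minus strand: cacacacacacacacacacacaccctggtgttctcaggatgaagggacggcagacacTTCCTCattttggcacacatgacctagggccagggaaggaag
Lyz2, chr10:117282322-117282522, minus strand: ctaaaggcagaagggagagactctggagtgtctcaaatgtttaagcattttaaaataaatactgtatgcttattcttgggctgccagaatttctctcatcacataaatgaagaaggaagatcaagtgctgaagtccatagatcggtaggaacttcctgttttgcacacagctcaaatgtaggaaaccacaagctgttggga
Fcer1g, chr1:171234366-171234599, minus strand: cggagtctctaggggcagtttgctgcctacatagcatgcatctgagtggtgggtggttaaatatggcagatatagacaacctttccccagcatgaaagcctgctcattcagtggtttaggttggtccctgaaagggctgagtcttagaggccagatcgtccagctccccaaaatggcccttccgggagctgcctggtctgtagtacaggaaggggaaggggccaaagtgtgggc

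The targeted gene was low in the library labelled KO. Trp53, the gene for p53, had 5.38 RPKM in KO and 33.9 RPKM in WT, a density over the whole gene that also counts exons outside the deleted part. Six2 had 509 RPKM in KO and 482 RPKM in WT. The depth recovered from the values was 85640522 counted reads in KO and 91224360 in WT. With it, the whole number of reads behind each of the 5 genes' densities was recovered.

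All 5 macrophage genes were low in both libraries and lower in KO. The B chain gene C1qb had the highest level, 0.644 RPKM in KO and 4.25 RPKM in WT, from 60 and 422 reads. Its density was 6.60-fold lower in KO (exact 95% interval 5.03 to 8.80). The A chain gene C1qa had 0.382 RPKM in KO and 2.71 RPKM in WT, from 34 and 257 reads, and was 7.10-fold lower (4.95 to 10.5). These intervals are Clopper-Pearson intervals of the read ratio and cover counting error only, not the spread between embryos or between libraries. The C chain gene C1qc had 0.200 RPKM in KO and 2.05 RPKM in WT, from 33 and 361 reads, and was 10.3-fold lower (7.18 to 15.1).

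The lysozyme gene Lyz2 had the lowest ratio of KO to WT density, with a fold interval that overlapped that of C1qc. It had 0.212 RPKM in KO and 2.70 RPKM in WT, from 23 and 312 reads, a density 12.7-fold lower in KO (8.33 to 20.4). Its neighbour Lyz1, the lysozyme of intestinal Paneth cells, shares 96.0% of 1262 aligned transcript bases with Lyz2. The split of reads between these copies makes the Lyz2 level uncertain, and Lyz1 is not analysed here. Fcer1g had the smallest fold, with 0.292 RPKM in KO and 1.63 RPKM in WT, from 20 and 119 reads, and was 5.59-fold lower (3.46 to 9.47). Every gene had its KO interval of density below its WT interval, while the fold intervals of Lyz2 and Fcer1g overlapped.

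**Figure D1:**
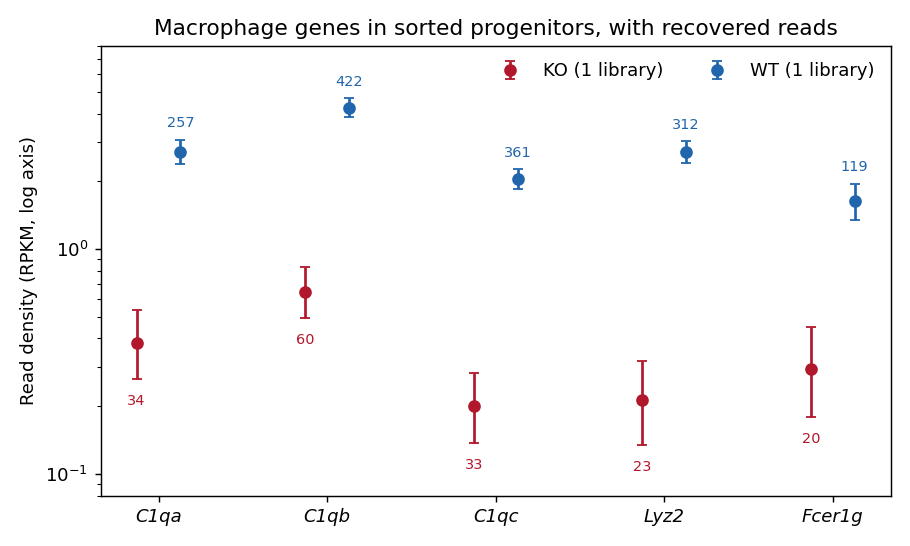
Read density in RPKM (log axis) of the 5 macrophage genes in the KO library (red, left of each pair) and the WT library (blue), with exact 95% Poisson intervals for counting error only. Numbers are recovered reads, 20 to 60 in KO and 119 to 422 in WT, and no interval of KO reaches that of WT.

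Together the 5 genes held 170 reads in KO and 1471 in WT. Scaled for depth, the summed reads were 8.12-fold lower in KO (exact 95% interval 6.93 to 9.58, counting error only). Their summed density was 1.73 RPKM in KO and 13.3 RPKM in WT. The genes ranked 8483rd to 9300th by density among the 10627 rows in KO and 6533rd to 7917th in WT. In bulk RNA of this kind, fewer cells of a type and less RNA per cell cannot be told apart.

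By density, the 3 chains of C1q kept the same order of levels in both libraries. By reads, C1qa stood 1 read above C1qc in KO (34 and 33) and below it in WT (257 and 361). Of the summed C1q density, C1qb held 52.6% in KO and 47.2% in WT, C1qa 31.2% in KO and 30.1% in WT, and C1qc 16.3% in KO and 22.7% in WT. C1qc showed the widest gap in its share. By reads, C1qc made up 26.0% of 127 C1q reads in KO (exact binomial interval 18.6% to 34.5%) and 34.7% of 1040 in WT (31.8% to 37.7%). These intervals overlap. Overlap of separate intervals does not decide whether the shares differ, and a shift between the chains was not tested. Lyz2 density stood at 0.173 of the C1q sum in KO and 0.300 in WT, and Fcer1g at 0.238 in KO and 0.181 in WT.

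A size rule of 1.5-fold was applied to log2(RPKM + 1), a scale that understates the change of genes as low as these. All 5 passed it as lower in KO, where 5.49% of 10617 listed genes did and 0.951% passed it as higher. The 5 were chosen with earlier results of these data known, so such shares describe them and are not a test. The log2 differences were -1.68 for C1qb, -1.61 for Lyz2, -1.42 for C1qa, -1.35 for C1qc and -1.03 for Fcer1g, beside a median of -0.11 over all listed genes. All 5 also passed a 2-fold rule on that scale, which 1.7% of listed genes did. Among the 1048 listed genes with a mean density in the range of these 5 (0.961 to 2.45 RPKM), 73.8% were lower at any size, with a median of -0.24. In that range 16.9% passed 1.5-fold and 5.92% passed 2-fold as lower, and 2.39% passed 1.5-fold as higher. By density ratio, all 5 were at least 5-fold lower in KO, as were 3.82% of genes in that range and 3.96% of the 10372 genes above 0 in both libraries. A ratio at least 5-fold higher was seen in 0.55% of those. Lyz2 ranked 75th and C1qc 117th among these 10372 for the lowest ratio of KO to WT, and Fcer1g 347th. The authors' deposited table gives folds of -5.37 for Fcer1g to -12.2 for Lyz2, negative because KO was lower. The deposited p-value was 0 for each, as it was for 1998 of the 10627 rows. With 1 library per genotype, that p-value cannot cover the spread between embryos or between libraries.

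**Figure D2:**
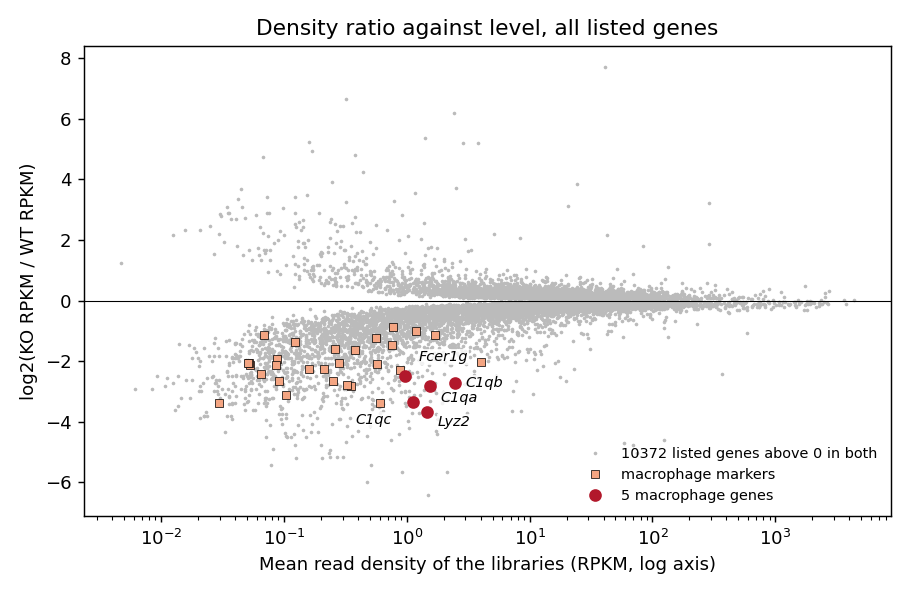
Log2 ratio of KO to WT density against mean density (log axis) for 10372 listed genes above 0 in both libraries, with the 5 macrophage genes in red and listed macrophage markers as squares. The 5 genes lie between 0.961 and 2.45 RPKM on average and below nearly all genes of the same level, and every square is below 0.

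Every corrected p-value in the authors' deposited table lies under 0.05, so genes of low level appear there only if they differ. Of 617 genes lower in KO whose WT reads lay between 119 and 422, the smallest listed fold was 1.21, the median fold 1.83, and 69 genes were at least 5-fold lower. Counts within the lists that follow leave out every gene absent from the table, and those genes are not analysed here.

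Other macrophage markers were lower in KO as well. The table holds 31 of 40 fixed markers, and all 31 were lower in KO, as were 62.7% of all listed genes. The 31 markers summed to 6.44 RPKM in KO and 21.9 RPKM in WT. Single markers ranged up to 1.57 RPKM in KO and up to 6.46 RPKM in WT. The 28 markers above 0 in both libraries had a median fold of 4.24 lower and a range of 1.81 to 10.5, against 7.10 for the median of the 5 genes. Cd33, Marco and Ccr2 were listed at 0 in KO, while Cd68, Cd14, Aif1, Coro1a, Plek, Hpgds, Clec10a and Fyb are among the markers not analysed here. On log2(RPKM + 1), 6 of the 31 were at least 1.5-fold lower, beside 5.49% of all listed genes and 16.9% of those in the density range of the 5. The median was -0.30.

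The 8 most abundant of these markers showed unequal differences. Csf1r, the receptor for the growth factors CSF1 and IL-34 on which macrophages depend, had 0.105 RPKM in KO and 1.1 RPKM in WT, a density 10.5-fold lower. Cx3cr1, the fractalkine receptor of tissue macrophages, had 0.218 RPKM in KO and 0.932 RPKM in WT, and Mpeg1, a pore-forming protein of phagocytes, 0.399 and 1.11 RPKM. Mertk, a receptor for dying cells that is found on other cell types too, had 1.07 RPKM in KO and 2.33 RPKM in WT. These levels differed by 4.26-fold, 2.79-fold and 2.18-fold. Pf4, a chemokine of platelets and of some macrophages, had 0.299 RPKM in KO and 1.48 RPKM in WT. Tmem119, a microglial marker in brain that bone-forming cells also express, had the highest level, 1.57 RPKM in KO and 6.46 RPKM in WT. Cd74, the invariant chain of antigen presentation, had 0.795 RPKM in KO and 1.59 RPKM in WT, and Laptm5, a lysosomal protein of blood cells, 0.549 and 0.995 RPKM. Spi1, the gene for PU.1, had 0.069 RPKM in KO and 0.179 RPKM in WT, from 16 and 44 reads, and was named after its value was seen.

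Receptors and adaptors related to Fcer1g had low levels apart from Fcgrt. Of 21 fixed Fc receptors and ITAM adaptors the table holds 7, of which 6 were lower in KO and 1 by at least 1.5-fold on the log2(RPKM + 1) scale, with a median of -0.26. Over all listed genes these shares were 62.7% and 5.49%, and the median was -0.11. Fcgr3, a low-affinity IgG receptor that needs the gamma chain, had 0.081 RPKM in KO and 0.770 RPKM in WT, from 12 and 122 reads, a fold of 9.54 (5.27 to 19.0). Fcgr1, the high-affinity IgG receptor that also pairs with it, had 0.027 RPKM in KO and 0.229 RPKM in WT, from 6 and 54 reads. Clec4n, the lectin receptor Dectin-2 that signals through the same chain, had 0.033 RPKM in KO and 0.239 RPKM in WT. Tyrobp, the related adaptor DAP12, had 0.124 RPKM in KO and 0.583 RPKM in WT. Clec7a, the lectin receptor Dectin-1, was listed at 0 in KO and had 0.086 RPKM in WT. Fcgrt, the neonatal Fc receptor found in many tissues, had 26.3 RPKM in KO and 34.1 RPKM in WT. Pirb, an inhibitory receptor deposited under the name Lilrb3, was the exception, with 0.120 RPKM in KO and 0.066 RPKM in WT.

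Kinases and adaptors that act behind the ITAM differed unequally. Of 16 fixed genes the table holds 9, of which 8 were lower in KO, none by 1.5-fold on the log2(RPKM + 1) scale, with a median of -0.16, beside 62.7% lower and 5.49% past 1.5-fold over all listed genes. Syk, the kinase that docks on the gamma chain and is used by several cell types, had 6.82 RPKM in KO and 6.37 RPKM in WT. Lyn, a Src-family kinase of blood cells, had 0.563 RPKM in KO and 1.09 RPKM in WT, a density 1.93-fold lower.

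Among complement genes, the proteases that complete C1 did not share the size of the C1q difference. C1s1, deposited as C1s and the gene for C1s, had 1.23 RPKM in KO and 3.59 RPKM in WT, a fold of 2.92 (2.58 to 3.32) whose interval lies below those of all 3 C1q genes. C1ra, a gene for C1r, had 0.433 RPKM in KO and 1.22 RPKM in WT. C1s2, a close relative of C1s1 deposited as Gm5077, had 0.294 RPKM in KO and 0.107 RPKM in WT, from 67 and 26 reads. C1ra and C1s2 were named after their values were seen, and reads of similar C1s copies may be split between them. Cfp, the gene for properdin, had 2.23 RPKM in KO and 2.98 RPKM in WT, and C2, the serine protease of the C3 convertase, 1.63 and 1.89 RPKM. In all, the table holds 8 of 20 fixed components, with 7 lower in KO, 2 by at least 1.5-fold on log2(RPKM + 1), and a median of -0.20. It holds 9 of 18 fixed receptors and regulators, with 7 lower, 3 by at least 1.5-fold, and a median of -0.44. Both lists stand beside 62.7% lower and 5.49% past 1.5-fold over all listed genes. Of these, the chaperone gene Calr, whose product can serve as a C1q receptor, had 235 RPKM in KO and 217 RPKM in WT. Serping1, the inhibitor of C1r and C1s, had 5.16 RPKM in KO and 10.7 RPKM in WT, and Clu, a regulator of the terminal complex, 6.64 and 9.38 RPKM.

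The most abundant genes for killing and for clearing showed smaller differences than Lyz2. The table holds 6 of 16 fixed genes of the phagocyte oxidase and of antimicrobial proteins, all 6 lower in KO and 1 by at least 1.5-fold, with a median of -0.20. Cyba, an oxidase subunit with wide expression, had 11.9 RPKM in KO and 18.8 RPKM in WT. Ncf1, a cytosolic oxidase subunit, had 0.175 RPKM in KO and 0.418 RPKM in WT. Of 18 fixed genes for the clearance of dying cells the table holds 15, with 12 lower, 1 by at least 1.5-fold, and a median of -0.18. The shares over all listed genes, 62.7% lower and 5.49% past 1.5-fold, stand beside both counts. The most abundant, the bridging protein gene Mfge8, had 83.3 RPKM in KO and 98.9 RPKM in WT. The receptor gene Axl had 19.8 RPKM in KO and 25.6 RPKM in WT, and Dock1, an activator of Rac in engulfment, 14.8 and 15.3 RPKM.

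Of the signals that feed or attract macrophages, the 3 most abundant differed by less than 1.5-fold, while monocyte attractants of very low level differed more. The table holds 6 of 10 fixed ligands, with 5 lower in KO, none by 1.5-fold on log2(RPKM + 1), and a median of -0.24, beside 62.7% lower and 5.49% past 1.5-fold over all listed genes. Csf1, a ligand of Csf1r, had 1.51 RPKM in KO and 2.15 RPKM in WT. The cytokine gene Mif had 264 RPKM in KO and 313 RPKM in WT, and Cxcl12 25.8 and 24.5 RPKM. Ccl2 had 0.021 RPKM in KO and 0.144 RPKM in WT, from 2 and 15 reads, a fold of 7.04 (1.64 to 63.5). Ccl7 was listed at 0 in KO and had 0.233 RPKM in WT, from 17 reads. These attractants were named after their values were seen.

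Erythroid, stromal, endothelial and ureteric bud markers were mostly lower in KO, to different degrees, while nephron progenitor markers went both ways. Over all listed genes, 62.7% were lower in KO, with a median log2 difference of -0.11. The 12 listed erythroid markers summed to 57.0 RPKM in KO and 661 RPKM in WT, with 11 lower and a median log2 difference of -0.86. Tfrc, the transferrin receptor that many dividing cells express, gave 33.0 RPKM in KO and 28.1 RPKM in WT and was the marker not lower, named after its value was seen. Most of the WT sum is globin, whose near-identical copies can share reads, as with Hbb-b1 at 9.69 RPKM in KO and 237 RPKM in WT. Hbb-b2 and Hba-a1 had 4.45 and 4.89 RPKM in KO, against 145 and 133 RPKM in WT, and Hba-x was listed at 0 in KO. The 19 listed endothelial markers summed to 64.0 RPKM in KO and 93.3 RPKM in WT, all lower, with a median of -0.40. Ramp2 alone, a receptor component that vessels express, gave 43.8 RPKM in KO and 50.7 RPKM in WT. Cldn5, a junction protein, and Plvap, a protein of vessel fenestrae, had 7.61 and 4.98 RPKM in KO, against 14.6 and 10.7 RPKM in WT. The 17 listed stromal markers summed to 176 RPKM in KO and 340 RPKM in WT, with 16 lower and a median of -1.21. The transcription factor genes Tcf21 and Foxd1 had 51.9 and 43.1 RPKM in KO, against 79.5 and 63.7 RPKM in WT. The 13 listed ureteric bud markers summed to 22.1 RPKM in KO and 41.4 RPKM in WT, all lower, with a median of -0.35. Epcam and Cdh16, genes of epithelial tubules, had 7.01 and 1.92 RPKM in KO, against 10.6 and 6.06 RPKM in WT. The 15 listed nephron progenitor markers summed to 1432 RPKM in KO and 1365 RPKM in WT, with a median of -0.07, 8 of them lower and 7 higher. Beside Six2, the most abundant were the transcription factor genes Sall1 and Uncx, with 211 and 162 RPKM in KO, against 184 and 149 RPKM in WT. These medians are on log2(RPKM + 1), which understates the change of low genes. By density ratio, median folds lower in KO were 21.0 for erythroid, 3.43 for stromal and 2.97 for endothelial markers. They were 1.91 for ureteric bud and 1.05 for nephron progenitor markers, against 4.24 for macrophage markers. The part of these other cell types in the result was not tested.

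Markers of other blood cells were sparse. No mast cell or basophil marker of 7 is in the table. Of 7 neutrophil markers, Mmp9 had 0.059 RPKM in KO and 0.192 RPKM in WT, and Csf3r was listed at 0 in KO and had 0.052 RPKM in WT. Of 6 megakaryocyte markers, Gp1bb had 0.207 RPKM in KO and 0.556 RPKM in WT, and Itga2b 0.049 and 0.10 RPKM. Of 16 lymphoid markers the table holds 3 with both directions among them. Cd79b, a chain of the B cell receptor, had 2.23 RPKM in KO and 1.55 RPKM in WT, Lck 1.65 and 1.98 RPKM, and Vpreb1 0.483 and 0.266 RPKM.

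**Figure D3:**
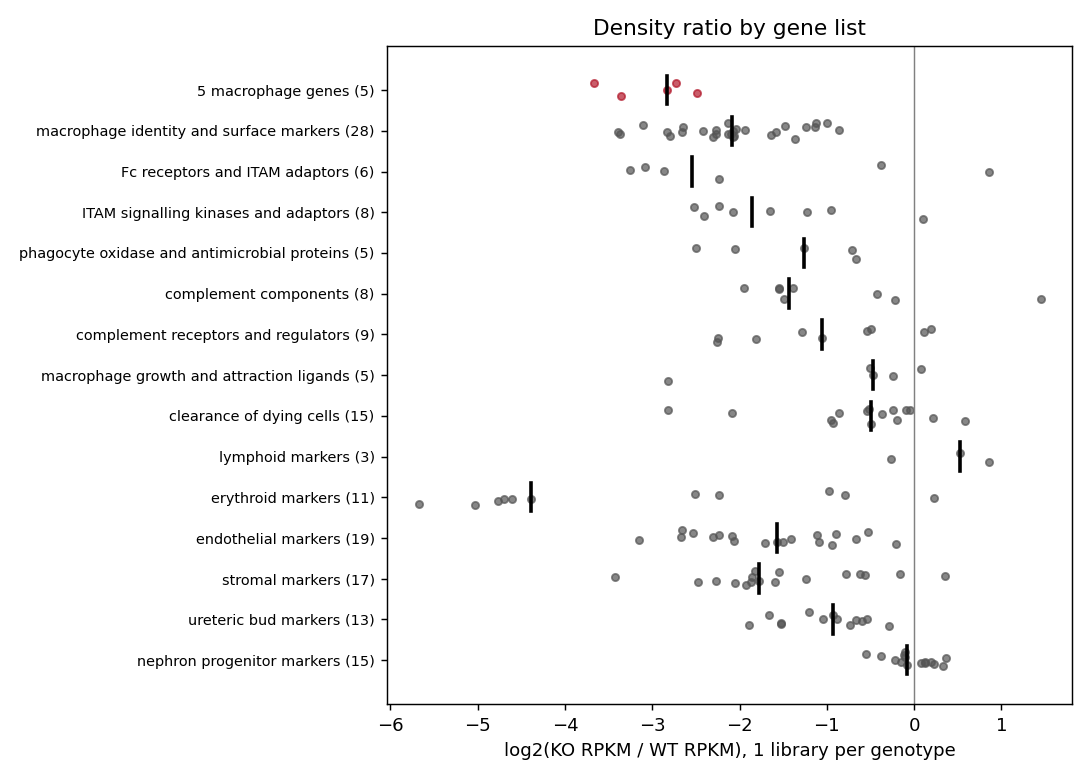
Log2 ratio of KO to WT density for every listed gene above 0 in both libraries, 1 row of points per gene list with the number of genes in brackets and a bar at the median. The 5 macrophage genes (red) all lie left of 0, as do all 28 macrophage markers drawn, while nephron progenitor markers lie around 0.

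Genes outside these lists had ratios like those of the 5. Among 873 such genes with a mean density in the same range, the nearest to the median of the 5 were Sod3, Aadat, Pdzk1ip1, Pdzk1 and Hao2, a likeness measured on 1 ratio from 2 libraries. Pdzk1, a scaffold of transporters at the proximal tubule membrane, had 0.382 RPKM in KO and 2.98 RPKM in WT, a fold of 7.79. Hao2, a peroxisomal oxidase of kidney and liver, had 0.217 RPKM in KO and 1.72 RPKM in WT, a fold of 7.94. Sod3, extracellular superoxide dismutase, had 0.448 RPKM in KO and 2.94 RPKM in WT, a fold of 6.57. Pdzk1ip1, whose product binds that of Pdzk1, had 0.315 RPKM in KO and 2.45 RPKM in WT, and Aadat, an aminotransferase of amino acid breakdown, 0.302 and 1.97 RPKM.

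Genes beside the 5 on the chromosomes had other ratios. The listed genes nearest to the C1q cluster, Luzp1 and Zbtb40, had 28.4 and 3.67 RPKM in KO, against 25.1 and 3.43 RPKM in WT. On either side of Lyz2, Frs2 and Cpsf6 had 14.9 and 15.4 RPKM in KO, against 13.1 and 13.1 RPKM in WT. On one side of Fcer1g, Pcp4l1 had 4.68 RPKM in KO and 0.355 RPKM in WT, a ratio of 13.2 in the opposite direction. These neighbours were chosen after the values were seen.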

How the data were processed

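FastQC, Novoalign 2.08.02 and CASAVA 1.8 appear in the submitters' processing notes, as do the build names mm10 and GRCm38. How reads were counted, whether strand was used and how reads with several alignments were treated is not given in the sources used here. The table the authors deposited holds, per the file headers, KO and WT read densities, an absolute fold ratio and a signed fold score between them, and a raw and a corrected p-value. The deposited density was read as RPKM from the values. Deposited folds of 70 of 75 genes at 0 in WT and 150 of 171 at 0 in KO were whole multiples of 1 step, within 0.01 of a read. Density, reads and GENCODE vM21 exon length gave the same depth for 43 of 67 such genes in KO and 89 of 149 in WT. Depths were 85640522 and 91224360 counted reads in KO and WT. Whether a counted read is a single read or a pair is not given.

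Reads of C1qa, C1qb and C1qc were whole at the GENCODE length, within 0.01. Those of Lyz2 and Fcer1g were whole, within 0.002, at 1266 and 800 bases, against 1316 and 874 in GENCODE. Of 3283 genes under 1000 reads, 46.1% were whole at the GENCODE length. Folds are density ratios with exact 95% intervals of these reads. Size rules used log2(RPKM + 1). Symbols on more than 1 row (8) took the row with the highest mean density, and listed genes were matched by symbol or by Ensembl ID.

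The 5 genes, and 17 gene lists, were chosen with earlier results of these data known. From each list the 3 most abundant genes are named, and 8 from the macrophage and Fc receptor lists. Where a list had fewer genes in the table, all are named. Some genes that this rule names are not reported here. Alternatives were pseudocounts of 0.1, 0.25 and 4, centring, the authors' scaling, a correction for GC content (10 bins) and length (4 bins), a 2-fold rule, the upper 50% by density and each row on its own, which cannot move the 5 genes since each has 1 row. The size rule was run on simulated Poisson counts with large decreases planted in KO. Those counts hold no spread between libraries, so the run cannot show how the rule fares against such spread. Python 3.11.15 with SciPy 1.17.1 was used.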

Additional observations from a re-analysis of the deposited data

How the results depend on the processing

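No paired analysis was possible because each genotype has 1 library. All 5 macrophage genes stayed lower in KO under every alternative that kept them, with log2 differences of -3.17 to -0.39. Of 30 such values, 13 stayed within the counting interval and 17 moved beyond it, among them every value under another pseudocount. The interval was set on log2(RPKM + 1), and another pseudocount changes that scale, so these counts do not measure stability. All 5 stayed past 1.5-fold except with a pseudocount of 4, where 3 did, since that pseudocount exceeds most of their densities. Of all listed genes, 101 were at least 1.5-fold higher and 583 lower. These counts were 361 and 1970 with a pseudocount of 0.1, 251 and 1384 with 0.25, and 32 and 181 with 4. They were 184 and 409 after centring, which moved all genes by 0.11 on the log2 scale, 27 and 180 at 2-fold, and 35 and 128 in the upper 50% by density, which holds none of the 5 genes or macrophage markers. Macrophage markers past 1.5-fold lower, 6 in the main analysis, numbered 27, 18 and 1 with pseudocounts of 0.1, 0.25 and 4, 3 after centring and 1 at 2-fold. Of 106 list medians, 97 moved by less than 1.5-fold. The correction for GC content and length left C1qb at -1.55 and Fcer1g at -0.94. Reads of 20 to 60 in KO limit the folds of the 5 genes.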

Other observations

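In the density range of the 5 macrophage genes, 40 genes were at least 5-fold lower in KO and 4 at least 5-fold higher. The 40 hold the 5 macrophage genes, 1 erythroid, 1 endothelial and 1 stromal marker, and 32 genes of no list, which were examined after their values were seen. Fbp1, an enzyme of gluconeogenesis, had the largest difference, with 0.0343 RPKM in KO and 2.93 RPKM in WT. Slc22a6, the organic anion transporter of the proximal tubule, had 0.168 RPKM in KO and 3.31 RPKM in WT. Pck1, another gluconeogenic enzyme, had 0.225 RPKM in KO and 3.34 RPKM in WT. Ggt1, a brush border enzyme of the proximal tubule, had 0.373 RPKM in KO and 3.07 RPKM in WT.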
